A study of Mus musculus with 2 samples.

Results

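Genes named Zfp with a number, for zinc finger protein, were compared between mouse embryonic stem (ES) cells depleted of the histone variant H2A.B and ES cells carrying a control hairpin. A gene was a member when a probe set of the array named it alone and its platform symbol was Zfp followed by digits only. Zfp42, a pluripotency marker, and Zfp57 were left out by the rule. The rule named 276 genes on 472 probe sets, and 267 of them had a usable value on both arrays, out of 16563 genes in all. The other 9, Zfp217, Zfp414, Zfp449, Zfp637, Zfp760, Zfp879, Zfp930, Zfp953 and Zfp982, had no usable control value and are not described further. One group was H2A.B KD, ES cells infected with a retrovirus (pMSCV-neo, U6 promoter) that makes a short hairpin RNA against H2A.B, and the other was Control KD, the same vector with a control sequence. Both were grown without feeders on gelatin, with serum and leukaemia inhibitory factor, and were selected with G418. Each group had 1 array, so no value below has a replicate error and no difference was tested. The labels number the H2A.B hairpin line 1 and do not say whether it was a clone or a pool.

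Most zinc finger proteins of this naming carry C2H2 fingers, short zinc-holding folds that read DNA base by base, and many of them also carry a KRAB box. In ES cells a KRAB box recruits the co-repressor Trim28 and the methyltransferase Setdb1, which place the heterochromatin mark H3K9me3 on retrotransposons and imprinted regions. A Zfp name does not state which of these parts a protein has, and some Zfp proteins act on RNA or ribosomes. Many Zfp genes lie beside one another in tandem clusters.

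Values are log2 intensities, and a difference is H2A.B KD minus Control KD on that scale. Each gene was read from its brightest probe set. A gene was past the expression filter when its mean over both arrays was at or above 6.73, the median over all genes. That held for 158 of the 267 Zfp genes (59.2%). The members and lists were chosen with results of these data known, and the difference of Zfp101 had been seen, so that difference is a description. Probe sets differ in how strongly they bind, so the levels of different genes were not ranked as amounts of RNA.

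The ES cell markers Pou5f1, Sox2, Nanog, Esrrb, Dppa5a, Klf4 and Tfcp2l1 were all past the filter on both arrays, between 11.15 and 14.22 in H2A.B KD cells and between 11.07 and 14.24 in Control KD cells. Of 7 fibroblast markers, 3 were past the filter, and all 7 together summed to 773 in H2A.B KD cells and 703 in Control KD cells on the linear intensity scale. Of 7 measured markers of differentiated lineages only Pax6 passed, and they summed to 679 in H2A.B KD cells and 1026 in Control KD cells. Pax6 differed by -0.78 on its brightest probe set and by 0.00, -0.03 and 0.03 on its others. Of 2 blood markers none passed, with sums of 159 in H2A.B KD cells and 186 in Control KD cells. The part of these markers in the results was not tested. Of the deposited values, 618 on the knockdown array are not log2 intensities and 1455 on the control array repeat a nearby value; both were left out, which removed 5 and 23 Zfp probe sets. The repeats divide the table into a first, a middle and a last section, and differences were narrower in the first: the median absolute difference of all genes past the filter was 0.04 in the first section and 0.19 in each of the others.

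Of the 158 Zfp genes past the filter, 4 were at least 2-fold different. Zfp148, which binds GC-rich DNA, was higher in H2A.B KD cells (1 of 158, 0.63%, against 0.676% of all genes past the filter). Zfp101, Zfp592 and Zfp335 were lower (3 of 158, 1.90%, against 1.28% of all genes past the filter). Of the 3 genes with more than 1 usable probe set, Zfp592 was 2-fold different on each of them, while Zfp101 and Zfp148 were not. The brightest probe set of Zfp101 lay in the first section of the table. Those of Zfp592 and Zfp148 lay in the middle section and that of Zfp335 in the last. Both arrays were at or above the filter level for 147 of the 158 genes, and of those 1 was 2-fold higher and 0 were 2-fold lower, so the 3 lower genes passed through their control value. The sequences before the transcription start of these 4 genes are shown because they are the members that the size rule picked out. They were taken from RefSeq on GRCm38.p6, are written 5′ to 3′ on the gene's own strand and run for 250 bases up to the start, with CpG pairs in capitals. For Zfp148, which has several starts in the promoter table, the outermost of them is shown. The table gives 1 start for Zfp335, which lies inside the span that RefSeq gives the gene, so its window is not the outermost one.
Zfp101 promoter, chr17:33394638-33394887, minus strand: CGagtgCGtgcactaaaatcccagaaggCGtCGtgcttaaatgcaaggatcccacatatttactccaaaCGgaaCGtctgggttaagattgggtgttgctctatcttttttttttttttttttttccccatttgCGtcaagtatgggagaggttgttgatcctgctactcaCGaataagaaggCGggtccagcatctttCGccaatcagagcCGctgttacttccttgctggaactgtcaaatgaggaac
Zfp592 promoter, chr7:80993434-80993683, plus strand: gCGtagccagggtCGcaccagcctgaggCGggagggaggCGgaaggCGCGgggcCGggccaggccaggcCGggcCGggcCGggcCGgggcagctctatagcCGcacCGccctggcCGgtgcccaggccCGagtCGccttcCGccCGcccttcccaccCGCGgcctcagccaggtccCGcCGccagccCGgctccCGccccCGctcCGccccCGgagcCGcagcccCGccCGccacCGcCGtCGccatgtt
Zfp335 promoter, chr2:164911751-164912000, minus strand: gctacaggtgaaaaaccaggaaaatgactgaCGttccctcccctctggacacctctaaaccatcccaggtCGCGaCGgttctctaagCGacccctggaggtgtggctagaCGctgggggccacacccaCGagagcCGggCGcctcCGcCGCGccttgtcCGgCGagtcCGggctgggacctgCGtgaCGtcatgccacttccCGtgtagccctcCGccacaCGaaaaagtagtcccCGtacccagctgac
Zfp148 promoter, chr16:33380525-33380774, plus strand: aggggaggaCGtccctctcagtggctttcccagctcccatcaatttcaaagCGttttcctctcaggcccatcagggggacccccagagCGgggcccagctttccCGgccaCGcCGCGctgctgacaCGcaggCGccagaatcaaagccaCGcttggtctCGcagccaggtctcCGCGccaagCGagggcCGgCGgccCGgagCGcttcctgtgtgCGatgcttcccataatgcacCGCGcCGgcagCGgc

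The Zfp101 window is the poorest of the 4 in CpG, with 11 pairs and 45.2% G or C. The Zfp592 window has 33 pairs and 81.6% G or C. Zfp335 has 21 CpG pairs and Zfp148 has 23. Their unlike composition is a description and was not tied to the differences.

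**Figure D1:**
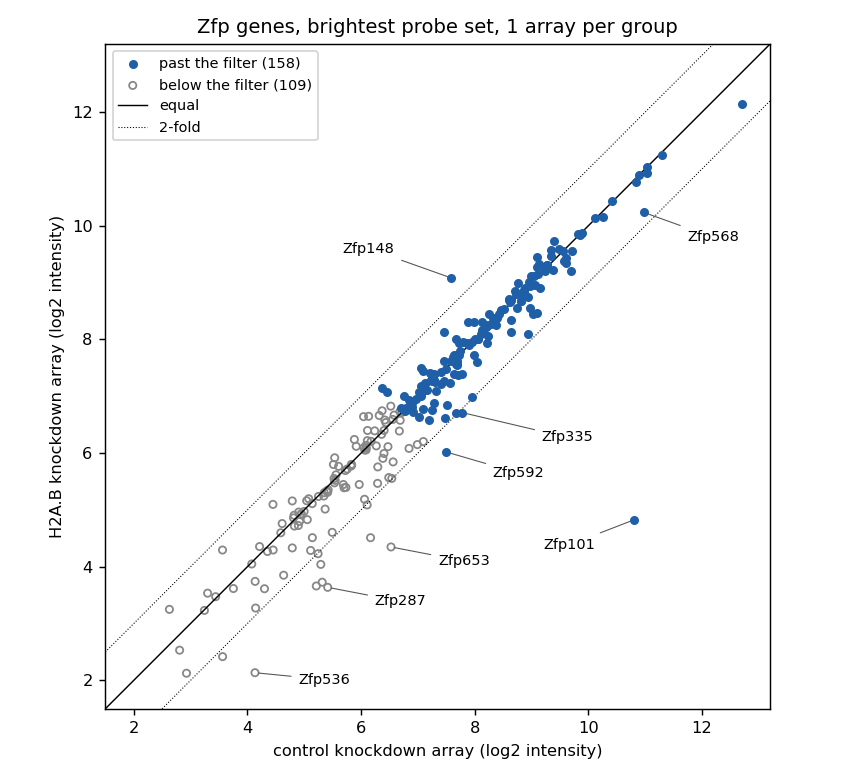
Log2 intensity of each Zfp gene on the H2A.B knockdown array (vertical axis) against the control array (horizontal axis), brightest probe set, 1 point per gene. Filled points are the 158 genes past the filter and open points the 109 below it; the solid line marks equal values and the dotted lines 2-fold. Zfp101 stands far below the line, and open points spread below it more than filled ones.

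Zfp101 had 4.82 in H2A.B KD cells and 10.80 in Control KD cells on its brightest probe set, a difference of -5.98. The knockdown value lay below that array's median of 5.59 and the control value far above its median of 5.64. The gene's second probe set, also past the filter, had 7.60 in H2A.B KD cells and 7.75 in Control KD cells, a difference of -0.15. One probe set thus placed the gene 63.0-fold lower and the other 1.11-fold lower, and no other probe set named it. Zfp101 lies on chromosome 17 beside Zfp81 and Zfp955b. Zfp81 had 7.55 in H2A.B KD cells and 7.70 in Control KD cells, and Zfp955b had 8.43 in H2A.B KD cells and 8.52 in Control KD cells. On the other side of Zfp101, Actl9, an actin-like gene, differed by -0.05 and Adamts10, a metalloprotease gene, by 0.32. The neighbouring genes with a value were therefore all within 0.5.

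Zfp592 was lower on all 3 of its probe sets. The brightest had 6.02 in H2A.B KD cells and 7.49 in Control KD cells (-1.47), and the dimmer ones were both below the filter. The next had 4.97 in H2A.B KD cells and 6.37 in Control KD cells (-1.40), and the dimmest had 2.90 in H2A.B KD cells and 4.49 in Control KD cells (-1.58). The 3 differences lay close together although the control levels spanned from 4.49 to 7.49. The brightest was read from the middle section and the dimmer ones from the last, so none came from the first section, where differences were narrower. In human cells the Zfp592 protein is known as a partner of ZMYND8, together with the proteins related to Zfp532 and Zfp687, and the values of these genes were looked up after that of Zfp592 was seen. Zfp532 had 8.10 in H2A.B KD cells and 8.94 in Control KD cells (-0.84) on its only usable probe set. Zfp687 differed by 0.08, and Zmynd8 by 0.21, 0.16 and 0.22 on its 3 probe sets.

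Zfp335, a regulator of neural progenitors linked to microcephaly in humans, had 6.71 in H2A.B KD cells and 7.78 in Control KD cells (-1.07) on its only probe set. It is the member just inside the 2-fold limit on the lower side, after Zfp592. Zfp251 (-0.97) and the brown fat regulator Zfp516 (-0.97) lie just outside it, with 1 usable probe set each. The boundary thus separates genes that are nearly alike.

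Zfp148 had 9.08 in H2A.B KD cells and 7.59 in Control KD cells, a 2.82-fold higher value, on the brightest of 5 usable probe sets. The other probe sets all had lower values in H2A.B KD cells. The next in brightness had 6.99 in H2A.B KD cells and 7.79 in Control KD cells (-0.80), and the remaining differences were -0.67, -0.38 and -0.03. The direction of Zfp148 was therefore opposite on the brightest probe set and on the 4 dimmer ones. A sixth probe set had a control value of 8.37 and no usable knockdown value.

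**Figure D2:**
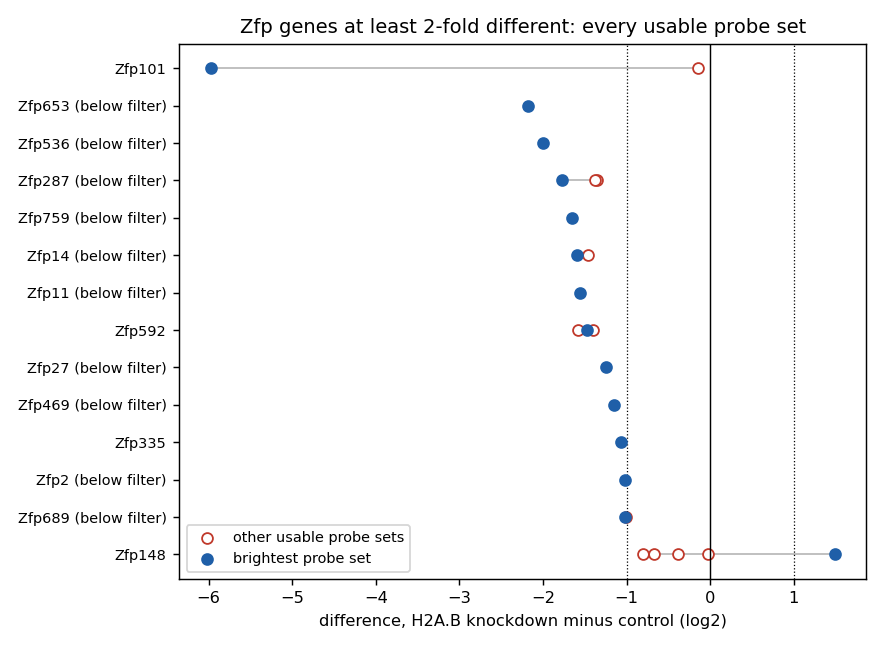
Difference, H2A.B knockdown minus control (log2), for every usable probe set of the 14 Zfp genes that were at least 2-fold different, past the filter or below it. Filled points are the brightest probe set and open points the others; dotted lines mark 2-fold. The open points of Zfp592, Zfp287, Zfp14 and Zfp689 lie beside the filled ones, that of Zfp101 lies near 0, and those of Zfp148 lie on the other side of 0.

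Most Zfp genes past the filter were nearly equal on both arrays. Of the 158, 140 (88.6%) were within 0.5, against 92.6% of all genes past the filter. The median difference was -0.01 over the Zfp genes and -0.0016 over all genes, with 84 Zfp genes (53.2%) below 0, against 50.6% of all genes past the filter, and 74 above. At a limit of 1.5-fold, 12 Zfp genes were lower (7.59%, against 3.84% of all genes past the filter) and 4 were higher (2.53%, against 1.8%). Of the 12 lower genes 6 passed the filter through their control value alone, and of the 4 higher genes 2 passed through their knockdown value alone. The filter fixed the direction of these genes, but not a size of 1.5-fold. Of the 158 genes, 8 had a knockdown value and 3 a control value below the filter level. Among the 147 Zfp genes with both arrays at or above the filter level, 6 were 1.5-fold lower (4.08%, against 2.86% of all such genes) and 2 were higher (1.36%, against 1.12%). Of the 12, 11 were read from the middle or last section of the table. The Zfp genes past the filter also lay in the first section less often, 41.1% of them against 59.4% of all genes. Within the middle section 7 of 49 Zfp genes were 1.5-fold lower (14.3%, against 8.97% of all genes there), within the last 4 of 44 (9.09%, against 7.2%) and within the first 1 of 65 (1.54%, against 0.935%). What the section contributes to these shares was not tested.

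**Figure D3:**
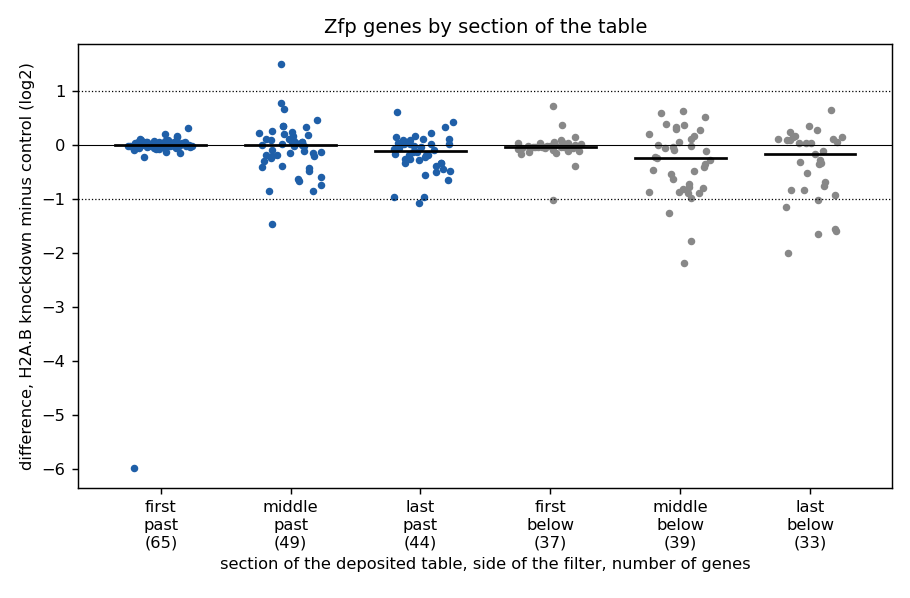
Difference, H2A.B knockdown minus control (log2), of each Zfp gene, by the section of the deposited table that its brightest probe set was read from and by its side of the filter. Black bars are medians, dotted lines mark 2-fold, and horizontal scatter only separates the points. Apart from Zfp101, genes of the first section past the filter lie within a narrow band, while the other sections are wide.

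The other Zfp genes of the 10 with the largest lower differences past the filter were Zfp513, linked to retinal degeneration in humans (-0.86), Zfp532, Zfp568, Zfp341, whose human counterpart drives STAT3 expression (-0.67), and Zfp110, a partner of the neurotrophin receptor p75 (-0.64). Each was read from a single usable probe set. On the higher side, after Zfp148, Zfp954 had 7.15 in H2A.B KD cells and 6.37 in Control KD cells (0.78) and Zfp944 had 8.13 in H2A.B KD cells and 7.47 in Control KD cells (0.66). These are the members just outside 2-fold on that side. Zfp944 was higher on its other 3 probe sets too, by 0.21, 0.42 and 0.58. Zfp606 differed by 0.60 on its brightest probe set and by -0.10 on the other. Zfp865 was higher on all 4 probe sets, by 0.46, 0.40, 1.00 and 0.11. The remaining genes of the 10 were Zfp273 (0.43), Zfp184 (0.35), Zfp319 (0.34), Zfp622 (0.33) and Zfp386 (0.33). Zfp319 had -0.52 and -0.22 on its dimmer probe sets, while Zfp622 and Zfp386 were higher on each of theirs. The brightest Zfp probe set was that of Zfp810, with 12.14 in H2A.B KD cells and 12.70 in Control KD cells (-0.56). Of the next 5 in brightness, Zfp979 differed by 0.01 and Zfp369 by -0.07, and Zfp207, Zfp706 and Zfp281 are described with their roles.

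Among Zfp genes of pluripotency and the early embryo, 5 members were past the filter and none reached 1.5-fold. Of all genes past the filter, 3.84% were 1.5-fold lower and 1.8% higher, and 5 genes are too few to compare with these shares. Zfp281, which acts with Nanog and Oct4 and in the exit from naive pluripotency, had 10.93 in H2A.B KD cells and 11.03 in Control KD cells, with -0.10 and 0.21 on its 2 probe sets. Zfp296, a reprogramming and heterochromatin factor, differed by 0.24. Zfp462, which helps hold lineage genes silent, differed by -0.10, with 0.08 and 0.14 on its dimmer probe sets. Zfp207, a mitotic protein that binds Bub3, had 11.25 in H2A.B KD cells and 11.30 in Control KD cells. On its other probe sets past the filter it differed by 0.03, -0.07 and -0.41. Zfp706, which acts in the exit from self-renewal, had 11.03 in H2A.B KD cells and 11.04 in Control KD cells. Zfp352, a gene of the 2-cell stage, was below the filter with 5.79 in H2A.B KD cells and 5.84 in Control KD cells. Zfp217 had no usable value.

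Of 5 measured KRAB zinc finger genes with known repeat or imprinted targets, Zfp568 and Zfp708 were 1.5-fold lower, against 6.24% of all genes without a filter. The other 3 were nearly equal on both arrays. Zfp568 and Zfp708 each had 1 usable probe set, in the middle section. There 8.97% of all genes past the filter and 17.7% of those below it were 1.5-fold lower. A list of 5 genes is too small to compare with these shares. Zfp568, which silences a placental Igf2 transcript, had 10.24 in H2A.B KD cells and 10.98 in Control KD cells, a 1.67-fold lower value on its only usable probe set. Zfp809, which recognises the primer binding site of murine leukaemia virus and silences it in ES cells, had 8.12 in H2A.B KD cells and 8.14 in Control KD cells. Zfp445, which maintains imprints, differed by 0.02, with -0.11 and -0.15 on its dimmer probe sets. Zfp932, which represses endogenous retroviruses, had 9.23 on both arrays. Zfp708, which binds a long terminal repeat family, was below the filter with 4.51 in H2A.B KD cells and 5.14 in Control KD cells (-0.63).

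Of the Zfp genes known from neural, fat and blood cells, 5 of 9 were past the filter. Beside Zfp335 and Zfp148, these were Zfp423, a partner of Ebf factors (0.15), Zfp318, needed for IgD splicing (0.19 on the brightest of 3 probe sets, with 0.05 and 0.06 on the others), and Zfp292 (-0.02, with -0.22, -0.06 and -0.52 on its dimmer probe sets). Below the filter, Zfp536, a repressor of neuronal differentiation, had 2.14 in H2A.B KD cells and 4.13 in Control KD cells (-2.00). The related co-repressor genes Zfp703 (0.37, and -0.01 on its other probe set) and Zfp503 (0.03 and -0.07) were also below it. So was the progenitor gene Zfp521, with -0.12 on its brightest probe set and -0.78 on the other. Of all genes past the filter, 0.676% were 2-fold higher, as Zfp148 was, and 1.28% lower, as Zfp335 was. Below the filter 4.54% of all genes were 2-fold lower, as Zfp536 was. A list of 9 genes is too small to compare with these shares.

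Zfp genes with roles in RNA, ribosomes and ubiquitin were nearly equal on both arrays. All 8 measured members were past the filter and within 0.5, and only Zfp598 lay below 0. Of all genes past the filter, 92.6% were within 0.5 and 50.6% below 0, and a list of 8 genes is too small to compare with these shares. Zfp622, a factor of 60S ribosome maturation in yeast and human, had 9.73 in H2A.B KD cells and 9.40 in Control KD cells. Its other probe sets differed by 0.11, 0.22 and 0.18. Zfp598, the ubiquitin ligase that senses collided ribosomes, differed by -0.18. Zfp593 (0.02), Zfp326 of the DBIRD splicing complex (0.06), Zfp638, which silences unintegrated retroviral DNA in human cells (0.03), the RNA-binding Zfp346 (0.0024) and Zfp106 (0.04), and the nucleolar Zfp330 (0.03) made up the rest.

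**Figure D4:**
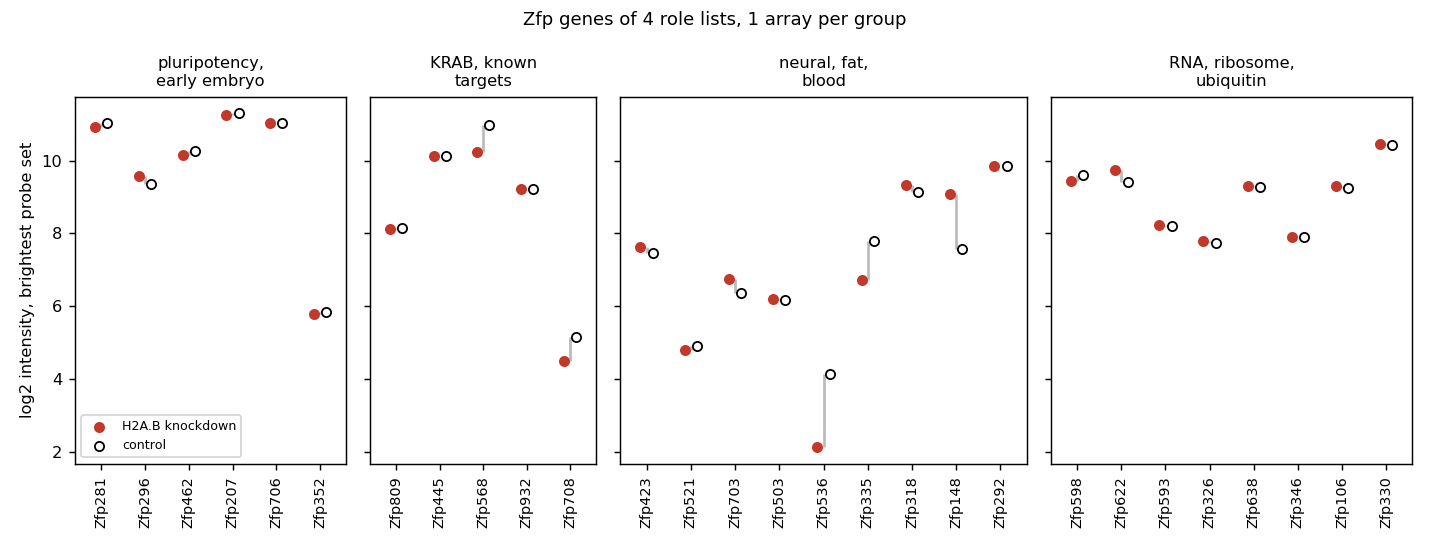
Log2 intensity of the measured Zfp genes of the 4 role lists, with H2A.B knockdown (filled) left of control (open) for each gene, brightest probe set, 1 array per group. The pairs lie close together except for Zfp568, Zfp708, Zfp536, Zfp335 and Zfp148.

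The KRAB co-repressor Trim28 and its partners, which are no Zfp genes, had 10 of 13 measured genes past the filter. Of these 10, 7 were above 0 and 3 below, while 50.6% of all genes past the filter lay below 0. Trim28 had 13.57 in H2A.B KD cells and 13.26 in Control KD cells (0.30, and 0.11 on its other probe set). Setdb1 differed by 0.18 and -0.11 on its 2 probe sets. Cbx3, a heterochromatin protein 1 gene, was the only one of the 10 at 2-fold, with 10.18 in H2A.B KD cells and 11.31 in Control KD cells (-1.13). Its second probe set had 3.11 in H2A.B KD cells and 4.11 in Control KD cells. Of all genes past the filter, 1.28% were 2-fold lower and 0.676% higher, and 10 genes are too few to compare with these shares. The other HP1 genes Cbx1 (0.04) and Cbx5 (0.14) were nearly equal. Smarcad1, a remodeller that binds Trim28, differed by -0.79 on its only usable probe set.

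Below the filter 10 of 109 Zfp genes were at least 2-fold lower (9.17%, against 4.54% of all genes below the filter) and none was 2-fold higher (against 1.58%). The first section held 33.9% of the Zfp genes below the filter, against 54.1% of all genes below it. Within the middle section 3 of 39 were 2-fold lower (7.69%, against 9.44% of all genes below the filter there). In the last it was 6 of 33 (18.2%, against 8.63%) and in the first 1 of 37 (2.70%, against 0.759%). The 10 genes had 2.14 to 5.09 in H2A.B KD cells and 3.56 to 6.53 in Control KD cells, so every knockdown value lay below that array's median. Signal over background was not available, and the size of differences at such levels is uncertain. The genes were Zfp653, a co-repressor of steroidogenic factor 1 (-2.18), Zfp536, Zfp287 (-1.78), Zfp759 (-1.66), Zfp14 (-1.59), Zfp11 (-1.55), Zfp27 (-1.25), Zfp469, linked to brittle cornea in humans (-1.15), Zfp2 (-1.02) and Zfp689 (-1.01).

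Another usable probe set existed for 3 of these 10 genes, and it was 2-fold lower for all 3. Past the filter or not, 5 Zfp genes that were 2-fold lower had another usable probe set. For 4 of the 5 one was 2-fold lower too (80%, against 67.6% of all such genes), and Zfp101 was the exception. Zfp287 had 3.64 in H2A.B KD cells and 5.41 in Control KD cells on its brightest probe set, and -1.35 and -1.38 on the others. Zfp14 differed by -1.46 on its second probe set, and that of Zfp689 had 3.54 in H2A.B KD cells and 4.55 in Control KD cells. At 1.5-fold, 25 of the 109 genes were lower (22.9%, against 8.65% of all genes below the filter) and 4 were higher (3.67%, against 4.17%). By section, 13 of 39 were 1.5-fold lower in the middle (33.3%, against 17.7% of all genes below the filter there), 11 of 33 in the last (33.3%, against 17.4%) and 1 of 37 in the first (2.70%, against 1.09%). These shares describe the 2 arrays and carry no test.

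Over both sides of the filter, 37 of 267 Zfp genes were 1.5-fold lower (13.9%, against 6.24% of all genes) and 8 were 1.5-fold higher (against 2.98% of all genes). Of the 37, 8 had another usable probe set, and for 4 of the 8 it passed the same limit (50.0%, against 53.5% of all such genes). Of the 8 that were higher, 3 had another probe set and it passed the limit for none of them, against 52.0% of all such genes. Among the 29 Zfp genes with several probe sets past the filter, the brightest and the next were within 0.5 of each other for 26 and had the same sign for 19 (65.5%, against 61.8% over all genes). The SD of the difference among all usable probe sets of a gene had a median of 0.09 over 108 Zfp genes and 0.06 over all genes. This spread is technical and lies within the same 2 arrays.

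The Zfp genes lay on 20 chromosomes, with 27.7% on chromosome 7 (against 7.70% of all genes) and 12.4% on chromosome 17 (against 4.55%). Of the 267, 98 lay in 14 runs of at least 4 members separated by no more than 3 other protein-coding genes. Of the 53 genes in runs past the filter none was 2-fold different, while 0.676% of all genes past the filter were 2-fold higher and 1.28% lower, so a count of 0 in 53 genes is near those shares. The median difference was -0.01 in runs and -0.01 outside. The longest run, 15 genes on chromosome 17 from Zfp677 to Zfp758, had 9 above 0 and 6 below, from -0.34 to 0.66. In the run on chromosome 7 from Zfp84 to Zfp146, which holds Zfp568 and Zfp14, 4 of 13 genes were 1.5-fold lower and none was 1.5-fold higher, against 6.24% and 2.98% of all genes without a filter. In the run of 10 on chromosome 13 from Zfp712 to Zfp748, 3 were 1.5-fold lower. These runs were picked after their values were seen, and over all runs 14.3% of Zfp genes were 1.5-fold lower, against 13.6% outside runs. All 5 genes from Zfp329 to Zfp446 on chromosome 7 lay below 0, from -0.87 to -0.0086. Without a filter, 58.1% of all Zfp genes lay below 0, against 52.4% of all genes.

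RefSeq promoters were found for 222 of the 267 Zfp genes. In the 250 bases before the start, Zfp genes past the filter had a median of 12 CpG pairs and those below it 9, against 17 and 7 over all genes. The GC box GGGCGG, searched on both strands, was in 54.5% of windows of Zfp genes past the filter and in 29.5% below it, against 62.1% and 37.6% of all genes. The CCAAT box was in 49.3% of Zfp windows past the filter, against 37.3% of all genes past it, and the YY1 core AANATGGC in 11.2%, against 4.82%. The ETS core CCGGAAG was in 16.4% past the filter, against 15.6%, and the TATA box TATAAA in 6.72%, against 6.09%. Below the filter the ETS core was in 18.2% of Zfp windows, against 5.28% of all genes, and the TATA box in 3.41%, against 12.54%. The YY1 core was in 2.27% there, against 2.95%, and the CCAAT box in 40.9%, against 34.99%. None of these motifs contains another, and a match is a description of the letters only. Of the 4 windows printed above, that of Zfp101 has a CCAAT box and that of Zfp592 a GC box and a YY1 core. Those of Zfp335 and Zfp148 have none of the 5.

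Other finger gene families, chosen by symbol, had medians close to 0 as well. Of 24 Zbtb genes past the filter, 1 was 2-fold higher and 1 lower (median 0.0047), against 0.676% and 1.28% of all genes past the filter, and none of 6 Zscan (median -0.07), 6 Zkscan (median -0.02) and 11 Klf genes (median 0.08) reached 2-fold. The Zbtb differences ran from -1.58 to 1.54. Families of 6 to 24 genes are too small for such counts to be compared with those shares.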

How the data were processed

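RNA of 2 ES cell cultures was labelled with biotin and hybridised to Affymetrix arrays, 1 per group. The deposited values came from RMA, as the submitters' processing notes name it without a version. The control column was used as log2 intensity, as its deposited range of 0.801 to 14.5 fits. The deposited knockdown column was recorded as a score because 616 values rise in steps of 1 and 2 more exceed 20; the rest was used as log2. These 618 were left out, as were 1455 control values equal to a value up to 20 rows above. Gene names of probe sets are those of the platform annotation, and chromosomes came from RefSeq (GRCm38.p6). Python 3.11.15, pandas 2.3.3 and statsmodels 0.14.6 were used, and the searches were tested on simulated data. No test was possible with 1 array per group. The number of arrays limits the precision. Members and lists were chosen with earlier results of these data known. Named genes were those at least 2-fold different, the 10 largest each way past the filter, the brightest, those beside the 2-fold limit and the role lists; the genes below the filter that were 2-fold lower, the neighbours of Zfp101 and the genes of runs were chosen after their values were seen. A planned split by protein features was not run. Alternatives changed the probe set, filter, centring, size limit, left-out values, section and gene names.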

Additional observations from a re-analysis of the deposited data

How the results depend on the processing

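With 1 array per group, leaving out a replicate could not be done. No paired analysis was possible because each group had 1 array. Over the 158 Zfp genes past the filter the main counts were 1 gene 2-fold higher and 3 lower, with a median difference of -0.01. Of all genes past the filter, 0.676% were 2-fold higher and 1.28% lower. There were 14 alternatives chosen with the design and 3 chosen after seeing the data. The 3 left out repeated knockdown values, set the filter on every probe set, or left out Zfp101. Across all alternatives the median difference lay between -0.067, in the last section alone, and 0.0014, in the first section alone. It was also above 0 with the filter at the upper quartile. The number 2-fold higher was 0 with the median over probe sets (of 157 genes) and with the filter at the upper quartile (of 44). It was also 0 in the first section alone (of 70), in the last alone (of 74) and with the filter set on every probe set of a gene (of 100). At 1.5-fold it was 4 of 158, against 1.8% of all genes past the filter. The number 2-fold lower was 13 of 267 with no filter (4.87%, against 2.91% of all genes) and 0 of 44 with the filter at the upper quartile. At 1.5-fold it was 12 of 158, against 3.84% of all genes past the filter. It was 1 in each of the 3 sections alone (of 70, 71 and 74 genes). With the filter set on every probe set it was 2 of 100, and without Zfp101 it was 2 of 157. The settings hold different numbers of genes, so these counts were not compared with each other. Zfp148 turned to -0.67 with the median over its probe sets, to -0.026 in the first section alone and to -0.80 in the last section alone, since those settings read its other probe sets. Zfp101 was at -3.06 with the median over its probe sets and at -0.15 in the last section alone, which holds only its second probe set.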
